A study of Mus musculus with 16 samples.

Results

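Ovarian RNA for the receptors through which pituitary hormones act on the ovary was followed in mice during and after testosterone. The receptors are Lhcgr, for luteinizing hormone (LH), Fshr, for follicle-stimulating hormone (FSH), Prlr, for prolactin, and Ghr, for growth hormone. They were taken by gene symbol, 4 of the 55426 genes in the table, and 4 of 4 passed the filter on low counts. The 16 libraries came from 1 ovary each of 16 females of the inbred strain C57BL/6NHsd, with 4 mice in a group, and every ovary was collected in diestrus. On T mice had a weekly subcutaneous dose of 0.9 mg testosterone enanthate in sesame oil for 6 weeks from 9 to 10 weeks of age and were 16 weeks old at collection. Control for On T mice had sesame oil alone and were of the same age. Post T mice had the same 6 weeks of testosterone, were then left untreated until cycles resumed, and gave their ovaries after 4 cycles at 24 to 28 weeks of age. Control for Post T mice had sesame oil alone and were matched to them in age. The 2 cohorts shared no mouse, and older and younger controls differ in cohort as well as in age, which cannot be told apart.

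The LH and FSH receptors are G protein-coupled receptors with a large hormone-binding ectodomain, and both raise cyclic AMP. FSH acts on granulosa cells and drives follicle growth. LH acts on theca cells, on granulosa cells of large follicles and on luteal cells, where it drives androgen synthesis, ovulation and progesterone synthesis. The prolactin and growth hormone receptors are cytokine receptors without a kinase of their own that signal through JAK2 and STAT5. In rodents prolactin sustains the corpus luteum, and growth hormone acts on many tissues, in part through insulin-like growth factor.

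Lhcgr (ENSMUSG00000024107) spans chr17:88716481-88791990 on the minus strand of GRCm38, and Fshr (ENSMUSG00000032937) spans chr17:88984952-89200675 on the same strand, 192961 bases away. Prlr (ENSMUSG00000005268) spans chr15:10177238-10349180 on the plus strand, and Ghr (ENSMUSG00000055737) spans chr15:3317760-3583492 on the minus strand. All 4 are protein-coding genes, and the counts are estimates over their annotated transcripts. The predicted gene Gm21973 overlaps 203 of the exon bases of Prlr (1.32%) and held 0 to 1 counts in a library. The bases just upstream of the outermost RefSeq start (GRCm38.p6) are printed 5′ to 3′ on the gene's own strand for Lhcgr and Prlr, which varied together among ovaries, and for Fshr, the neighbour of Lhcgr. Capitals mark the motifs found, among those searched on both strands.
Lhcgr: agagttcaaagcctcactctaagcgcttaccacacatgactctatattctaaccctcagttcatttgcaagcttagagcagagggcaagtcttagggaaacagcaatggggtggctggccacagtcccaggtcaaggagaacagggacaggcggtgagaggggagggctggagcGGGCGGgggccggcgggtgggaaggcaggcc
Prlr: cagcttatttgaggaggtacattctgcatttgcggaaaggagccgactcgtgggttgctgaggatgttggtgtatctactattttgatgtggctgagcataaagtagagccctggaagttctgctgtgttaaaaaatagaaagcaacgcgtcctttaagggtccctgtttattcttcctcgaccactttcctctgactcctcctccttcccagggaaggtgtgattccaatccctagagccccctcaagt
Fshr: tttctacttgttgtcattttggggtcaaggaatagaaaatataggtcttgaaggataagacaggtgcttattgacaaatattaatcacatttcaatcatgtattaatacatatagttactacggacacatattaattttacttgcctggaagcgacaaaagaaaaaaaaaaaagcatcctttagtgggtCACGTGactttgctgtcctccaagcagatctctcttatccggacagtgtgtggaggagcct
The Lhcgr window (chr17:88792060-88792264) held 1 GC box, GGGCGG, a binding motif of SP1. Of 32851 RefSeq promoter windows, cut to their first 205 bases and so without those nearest the start, 25.6% hold it. The printed Lhcgr window itself ends at the outermost start. The RefSeq promoter window of Lhcgr, chr17:88791965-88792264, is set on a start further inside the gene. The 250 bases upstream of that start held 4 GC boxes. The Fshr window (chr17:89200676-89200925) held 1 E-box, CACGTG, which 6.02% of windows of 250 bases hold. The Prlr window (chr15:10176988-10177237) held none of the motifs searched. The 2 RefSeq windows at internal Prlr starts were searched over the 250 bases upstream of the start. In chr15:10223656-10223955 these held 1 STAT motif and 1 cyclic AMP motif, and in the other they held none. The others searched were the NR5A motif AAGGTCA (in 4.08% of windows of 250 bases), the STAT motif TTCNNNGAA (7.02%), the palindromic androgen receptor element (0.387%) and the cyclic AMP motif TGACG (17.8%), and none of the 3 printed windows held one. Such matches describe letters and no site of binding.

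Receptor counts were well above the filter in every library. Lhcgr had 2124 to 31960 counts, Prlr 6423 to 33000, Ghr 1389 to 4077 and Fshr 429 to 2190, in libraries of 26598055 to 52659637 counts. Ovarian cell markers were present, with all 10 granulosa markers and all 10 luteal markers tested. Levels below are TMM-scaled CPM, that is, counts set against the size of each library, and tests are edgeR's quasi-likelihood F test adjusted over the 18833 genes tested, with a call at an adjusted p under 0.05.

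Prlr RNA was lower with testosterone in both cohorts. In the 4 On T ovaries Prlr stood at 187.9, 225.4, 247.7 and 185.5 CPM, against 431.5, 633.0, 321.2 and 570.2 CPM in their controls. Every On T library lay below every control library. The On T mean was 211.6 ± 30.2 CPM and the control mean 489.0 ± 140.0 (SD, n = 4 each). The log2 fold change of Prlr was -1.21, with an SE of 0.25 (edgeR adjusted p = 0.00523), a fall in Prlr RNA. In Post T ovaries Prlr stood at 363.1, 251.2, 226.2 and 398.0 CPM, against 763.5, 446.7, 427.9 and 811.5 CPM in their controls. Here too every treated library lay below every control library. The Post T mean was 309.6 ± 83.8 CPM and the control mean 612.4 ± 203.3 (SD, n = 4 each), a fall of 0.98 on the log2 scale (SE 0.25, adjusted p = 0.0135). Prlr was the 1 receptor of 4 called in each cohort. Across all genes 9.27% were called on testosterone, 4.24% higher and 5.03% lower, and 12.3% after it, 7.49% higher and 4.81% lower. Groups with no overlap and the treated side lower made up 7.92% of genes on testosterone and 6.92% after it. The effects of the 2 cohorts on Prlr differed by 0.22 (SE 0.35, adjusted p = 0.838), in a comparison that called 3.25% of genes. The Post T call was lost without Post T library 2 (adjusted p = 0.0522), without Post T library 3 (0.0523) and without Post T control library 4 (0.0573), with falls of 0.82 to 0.88 on the log2 scale. In RNA from whole ovaries, fewer cells that carry a receptor and less receptor RNA in each cell cannot be told apart.

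Luteal markers moved beside Prlr. The list of 10 luteal markers was chosen with earlier results of these data known, so its counts are a description. Of the 10, 7 fell and 0 rose in each treatment contrast, beside 5.03% and 4.81% of all genes called lower. Their median log2 fold change was -2.89 on testosterone and -3.02 after it, against -0.01 over all genes in both. Their summed level was 4700 to 8410 CPM in On T ovaries against 11600 to 13700 CPM in their controls, and 5530 to 9420 CPM in Post T ovaries against 9500 to 20600 CPM in theirs. Their part in the Prlr difference was not tested.

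**Figure D1:**
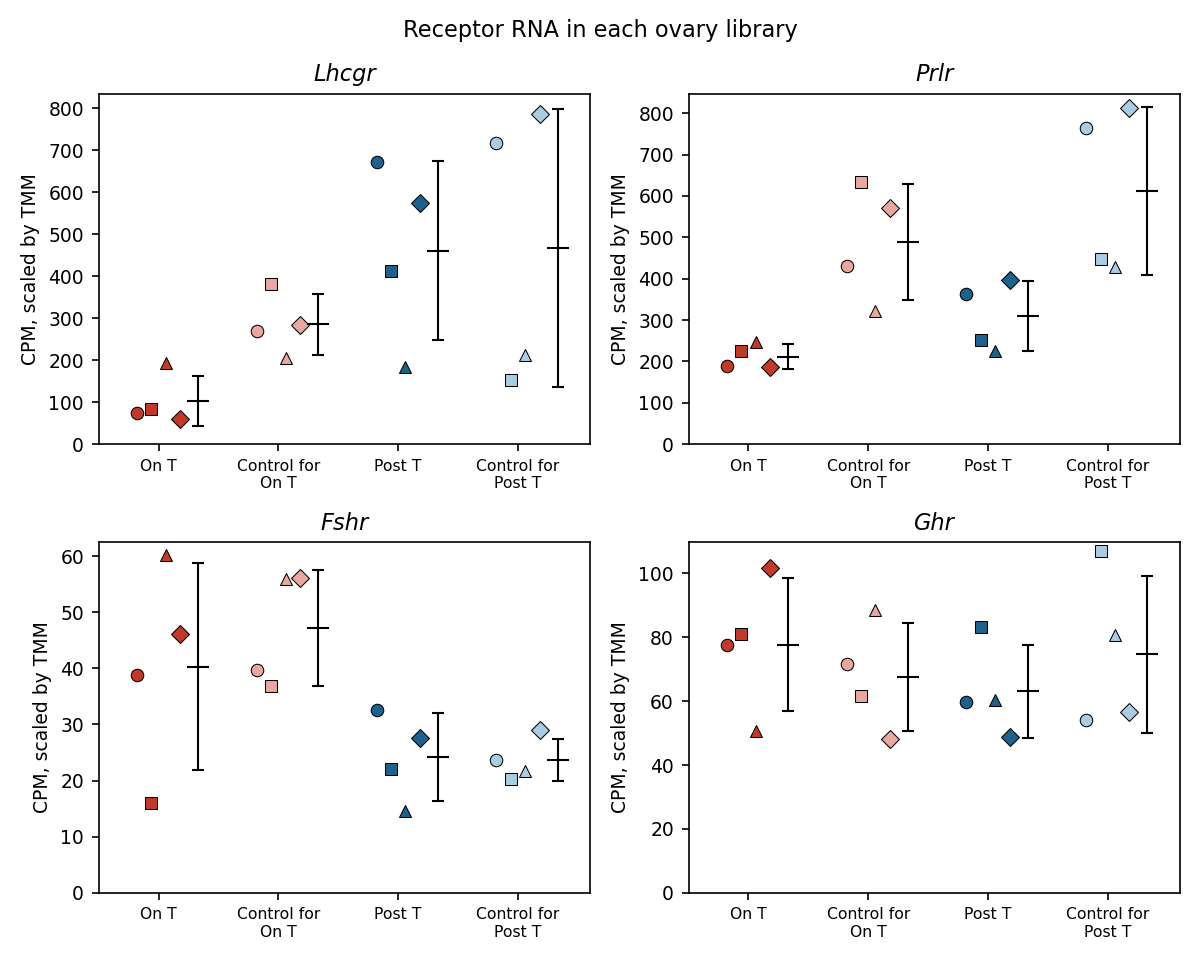
RNA of the 4 receptors in each ovary, in CPM scaled by TMM. Each point is 1 library, with the marker shape giving its replicate number, and bars give the mean and SD of 4. For Prlr all 4 On T points and all 4 Post T points lie below all 4 points of their own controls.

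Lhcgr RNA was low in 3 of the 4 On T ovaries and showed no such difference after testosterone. On T ovaries had 75.4, 84.3, 192.6 and 61.3 CPM, against 270.7, 381.0, 204.4 and 284.8 CPM in their controls. The groups did not overlap, but On T library 3 lay just below the lowest control, while the other On T libraries lay well under it. Lhcgr averaged 103.4 ± 60.2 CPM on testosterone and 285.2 ± 72.8 CPM in controls (SD, n = 4 each). The log2 fold change of -1.46 (SE 0.51, unadjusted p = 0.0104) missed the threshold after adjustment (adjusted p = 0.0858). Across the alternatives the log2 fold change ran over -1.94 to -1.27 and the adjusted p over 0.0296 to 0.207. It passed without On T library 3 (-1.94, adjusted p = 0.0296), with only the 8 libraries compared (-1.46, 0.0339) and with age as a covariate (-1.46, 0.0466), and missed the threshold under the others. In Post T ovaries Lhcgr stood at 671.5, 411.8, 184.3 and 574.3 CPM, against 716.9, 152.8, 213.7 and 786.0 CPM in their controls. Both groups held high and low ovaries and overlapped over most of their range, with means of 460.5 ± 213.0 and 467.4 ± 330.2 CPM (SD, n = 4 each) and a log2 fold change of -0.02 (SE 0.49, adjusted p = 0.990). The Post T effect on Lhcgr minus the On T effect was 1.44 (SE 0.70, unadjusted p = 0.0567, adjusted p = 0.370).

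Fshr RNA, which marks granulosa cells, showed no called change with testosterone in either cohort. On T ovaries had 38.9, 16.0, 60.2 and 46.2 CPM, against 39.6, 36.9, 56.0 and 56.1 CPM in their controls. On T library 2 had the lowest value of these 8 and also the lowest summed granulosa markers of its group, 4050 CPM, where the other On T ovaries had 10200 to 13800 CPM and their controls 7110 to 11000 CPM. The log2 fold change was -0.22 (SE 0.30, adjusted p = 0.718), and without that library it was 0.04. Post T ovaries had 32.6, 22.0, 14.6 and 27.6 CPM, against 23.6, 20.3, 21.7 and 29.0 CPM in their controls. These groups overlapped fully, with a log2 fold change of 0.03 (SE 0.31, adjusted p = 0.970). Of the 10 granulosa markers 0 were called in either contrast.

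Fshr RNA stood lower in the older controls than in the younger ones. Fshr averaged 23.7 ± 3.8 CPM in the older controls and 47.1 ± 10.3 CPM in the younger controls (SD, n = 4 each), and the groups did not overlap, as in 2.61% of genes for this direction. The log2 fold change of -0.99 (SE 0.31) had an unadjusted p of 0.00508 and an adjusted p of 0.265, so it was not called. In this comparison 0% of genes were called by edgeR, which gave 1892 genes at an unadjusted p under 0.05, while DESeq2 called 173. The summed granulosa markers were 6050 to 7080 CPM in the older controls and 7110 to 11000 CPM in the younger ones, and their part in the Fshr difference was not tested. Lhcgr (log2 fold change 0.71, SE 0.50, adjusted p = 0.677), Prlr (0.32, SE 0.25, adjusted p = 0.70) and Ghr (0.14, SE 0.24, adjusted p = 0.883) were not called between older and younger controls.

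Ghr RNA showed no called change in either cohort. On T ovaries had 77.6, 81.0, 50.6 and 101.6 CPM, against 71.7, 61.6, 88.4 and 48.2 CPM in their controls, and the ranges overlapped (log2 fold change 0.20, SE 0.24, adjusted p = 0.680). Post T ovaries had 59.8, 83.4, 60.2 and 48.7 CPM, against 54.1, 106.9, 80.8 and 56.7 CPM in their controls, again with overlap (-0.24, SE 0.25, adjusted p = 0.635). The effects of the 2 cohorts differed by 0.26 for Fshr (SE 0.43, adjusted p = 0.850) and by -0.45 for Ghr (SE 0.35, adjusted p = 0.618).

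**Figure D2:**
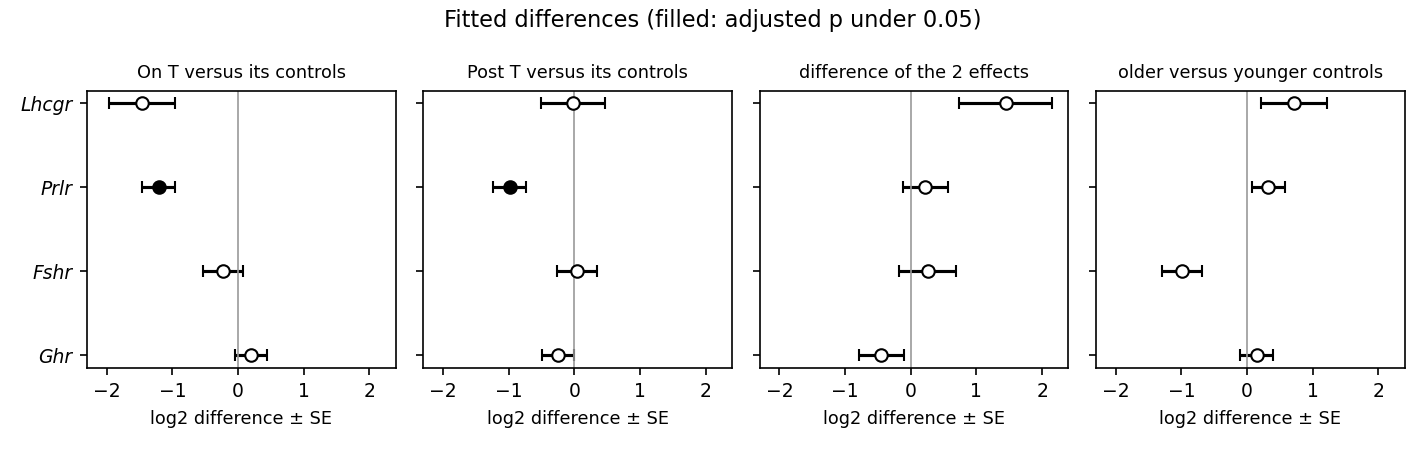
Fitted log2 differences of each receptor with their standard errors, for the treatment contrasts, the difference of their effects and the control groups. Filled points passed at an adjusted p under 0.05, and Prlr at -1.21 and -0.98 holds the only filled points.

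Per estimated length of transcript (TPM), Lhcgr was the most abundant receptor RNA in most ovaries. Its place rests on an estimated length of 2375 to 3580 bases, under the 6828 bases of its 1 coding transcript. The order of the receptors at that coding length was not tested. The order Lhcgr, Prlr, Ghr, Fshr held in 9 of 16 libraries, Lhcgr stood above Fshr in 16, above Prlr in 15 and above Ghr in 13, and Ghr stood above Fshr in 14. In On T ovaries the receptors came close together, with means of 46.5 ± 25.8 TPM for Lhcgr, 41.0 ± 11.4 for Ghr, 33.0 ± 5.1 for Prlr and 25.1 ± 11.5 for Fshr, and each overlapped its neighbour in this order. In their controls Lhcgr averaged 145.5 ± 52.1 TPM and Prlr 80.2 ± 26.4, which overlapped, and Prlr lay above Ghr, at 34.3 ± 9.3, without overlap, while Ghr and Fshr, at 29.7 ± 6.7, overlapped. In Post T ovaries Lhcgr averaged 181.7 ± 92.4 TPM and its lowest value, 62.5, lay just above the highest of Prlr, 61.8. Prlr averaged 47.2 ± 15.2 TPM there and overlapped Ghr at 29.3 ± 7.2, and Ghr lay above Fshr, at 14.8 ± 5.2, without overlap. In their controls Lhcgr, at 200.6 ± 130.9 TPM, and Prlr, at 96.2 ± 32.2, overlapped, and Ghr, at 36.8 ± 13.2, and Fshr, at 14.8 ± 2.8, each lay apart from the receptor above (SD, n = 4 for every mean).

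The balance of LH to FSH receptor RNA was lowest on testosterone. The ratio of Lhcgr to Fshr in TPM ran over 1.05 to 3.41 in On T ovaries, with a median of 1.88, against 2.93 to 9.17 in their controls, with a median of 4.44. After testosterone it ran over 7.63 to 15.3, with a median of 11.8, against 5.43 to 22.9 in their controls, with a median of 12.5. The groups of each pair overlapped. Prlr to Ghr had a median ratio of 0.766 in On T ovaries against 2.54 in their controls, and of 1.61 in Post T ovaries against 3.00 in theirs. Lhcgr to Prlr had a median ratio of 1.14 (1.00 to 2.17) on testosterone against 1.89 in controls, whose highest was 2.05, and of 4.14 (2.06 to 4.26) after testosterone against 1.96 (0.992 to 2.80) in controls. In 3 of the 4 Post T ovaries it lay above every other library of the study. These ratios are given as descriptions, with no test, and those with Lhcgr rest on its estimated length.

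**Figure D3:**
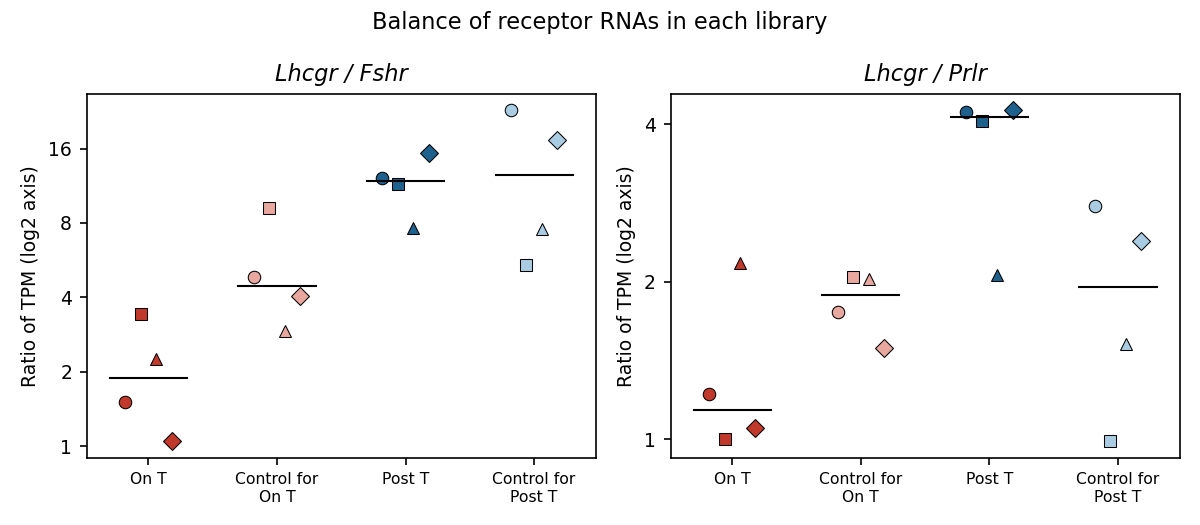
Ratios of receptor RNA in TPM in each library, on a log2 axis, for Lhcgr over Fshr and Lhcgr over Prlr. Lines are group medians, which for Lhcgr over Prlr are 1.14 in On T, 1.89 in its controls, 4.14 in Post T and 1.96 in its controls.

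Among ovaries of 1 group, Lhcgr and Prlr varied together and Ghr varied against both. The deviations of log2 CPM from the group means were compared over the 16 libraries for 6 pairs of receptors, with labels permuted within groups 100000 times and two-sided p-values adjusted over the 6 pairs. For Lhcgr with Prlr, Pearson's r was 0.861 (permutation p = 6e-05, adjusted 0.00036) and Spearman's rho 0.853 (p = 5e-05, adjusted 0.0003), and r was 0.838 without the 2 libraries farthest from the median of Lhcgr. For Prlr with Ghr, r was -0.788 (permutation p = 0.00259, adjusted 0.00777) and rho -0.735 (p = 0.00651, adjusted 0.0162), with r at -0.742 without 2 libraries. For Lhcgr with Ghr, r was -0.735 (permutation p = 0.0104, adjusted 0.0208) and rho -0.759 (p = 0.00812, adjusted 0.0162), with r at -0.775 without 2 libraries. In the older controls, for example, libraries 1 and 4 were high in Lhcgr and Prlr and low in Ghr, and libraries 2 and 3 the reverse. Summed luteal markers in those controls stood at 20600 and 16200 CPM in libraries 1 and 4 and at 9500 and 10700 CPM in libraries 2 and 3, and their part in these relations was not tested.

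Fshr was less tied to the others. Its r was 0.454 with Lhcgr (permutation p = 0.0858, adjusted 0.129; rho 0.488, p = 0.0631, adjusted 0.0947), and 0.321 without the 2 libraries farthest from the median of Lhcgr. With Prlr it was 0.239 (permutation p = 0.294, adjusted 0.319; rho 0.250, p = 0.331, adjusted 0.331), and 0.280 without 2 libraries. With Ghr it was -0.305 (permutation p = 0.319, adjusted 0.319; rho -0.344, p = 0.227, adjusted 0.272), and -0.436 without 2 libraries.

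**Figure D4:**
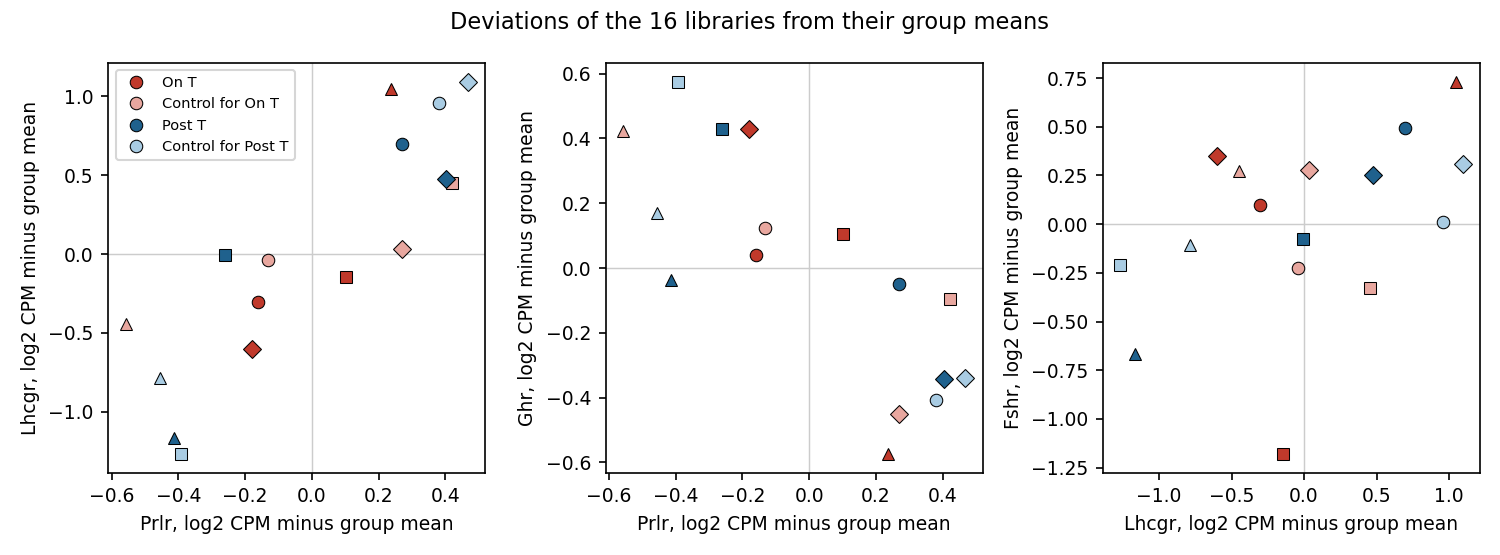
Deviations of log2 CPM from the group mean in the 16 libraries, for Prlr against Lhcgr, Prlr against Ghr and Lhcgr against Fshr. Colours give the groups and marker shapes the replicate number. Pearson's r is 0.861, -0.788 and 0.454 in this order.

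The genes most like each receptor across the 16 libraries were named by Pearson's r of log2 CPM among 13492 genes, as a description. For Lhcgr they were Kif5b (r = 0.903; 0.773 for deviations from group means), Mfn2 (0.898; 0.784), Tcaf2 (0.893; 0.823), Scamp3 (0.887; 0.754) and Ube2f (0.884; 0.838). For Prlr they were Idh1 (0.953; 0.848), Plxnb1 (0.944; 0.785), Klhl2 (0.943; 0.781), Trp53inp2 (0.943; 0.899) and Mia2 (0.942; 0.760). For Fshr they were Zfp711 (0.939; 0.944), Nxf2 (0.938; 0.894), Tfg (0.933; 0.941), Fam98a (0.931; 0.953) and Sf3b3 (0.930; 0.899). For Ghr they were Irs2 (0.872; 0.887), an adaptor of insulin and growth factor receptors, Prkab2 (0.864; 0.894), Ptger3 (0.863; 0.867), Plxdc2 (0.846; 0.881) and Cop1 (0.846; 0.842). All libraries share their group structure in these values, so r over 16 libraries mixes differences between groups with those within them.

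RSEM reads the mix of transcripts from the fragments, and the effective length of a gene, the mean over its transcripts weighted by abundance, can be recovered from counts and FPKM. Fshr, with 1 transcript in GENCODE M21, stayed at 2094 to 2118 bases in all libraries. Lhcgr, with 4 annotated transcripts of which 1 codes for protein, had 2907 ± 276 bases in On T ovaries against 2660 ± 252 in their controls, and 3341 ± 331 in Post T ovaries against 2930 ± 244 in theirs (SD, n = 4 each). Exact permutation p-values were 0.171 and 0.0857, and the smallest that 4 against 4 allows is 0.0286. Its 1 coding transcript is annotated at 6828 bases, longer than these values. Prlr, with 12 transcripts of which 7 code for protein, had 8447 ± 221 bases in On T ovaries against 8176 ± 204 in controls, and 8477 ± 268 in Post T ovaries against 8304 ± 137 (exact permutation p = 0.171 and 0.314). Ghr had 2512 ± 208 bases in On T ovaries against 2622 ± 147, and 2755 ± 154 in Post T ovaries against 2666 ± 159. No length difference passed after adjustment over 12 tests.

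Downstream of prolactin and growth hormone, the STAT5-induced inhibitor Cish fell with testosterone in both cohorts. Cish averaged 8.17 ± 0.97 CPM in On T ovaries and 19.3 ± 3.4 CPM in their controls (SD, n = 4 each), a log2 fold change of -1.24 (SE 0.33, adjusted p = 0.0242). That call was lost without On T library 1 (adjusted p = 0.0632), 3 (0.0526) or 4 (0.0769) and without control library 1 (0.0621) or 2 (0.0518). In Post T ovaries Cish averaged 9.67 ± 1.51 CPM against 56.0 ± 38.8 CPM in their controls (SD, n = 4 each), a log2 fold change of -2.53 (SE 0.33, adjusted p = 5.05e-05), with 24.5 to 112.5 CPM in those controls. The effects differed by -1.29 with an adjusted p of 0.170. Cish had a log2 fold change of 1.53 between older and younger controls (adjusted p = 0.133, not called). Of the 13 JAK and STAT inhibitors tested, Cish was the 1 that fell and 0 rose on testosterone. That share lay under the 9.27% of all genes called in either direction, and 5.03% of all genes were called lower. Of all genes 12.3% were called after testosterone, 7.49% higher and 4.81% lower. After testosterone Cish fell and 2 rose, Ptpn6, the phosphatase SHP-1 of blood cells (log2 fold change 1.48, adjusted p = 7.88e-06), and the phosphatase Ptpn1 (0.39, adjusted p = 0.0130). The Ptpn1 call was lost with limma on log2(TPM + 1) (adjusted p = 0.609) and log2(TPM + 0.1) (0.627).

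Of 12 JAK and STAT genes tested, 1 rose and 0 fell on testosterone, a share near the 9.27% of all genes called, with a median log2 fold change of 0.06. After testosterone 2 rose and 1 fell, where 12.3% of all genes were called, with a median of 0.0041. Sirpa, a myeloid membrane receptor, rose in both, by 0.68 (adjusted p = 0.00562) and 1.79 (adjusted p = 3.35e-07). The adaptor Grb2 (0.45, adjusted p = 0.000703) rose after testosterone, and Stat5b, a main STAT of both receptors, fell by 0.51 (SE 0.13, adjusted p = 0.0121). On testosterone Stat5b had a log2 fold change of -0.28 with an adjusted p of 0.197. Summed macrophage markers were 2490 to 3840 CPM in Post T ovaries against 258 to 484 CPM in their controls, with 6 of 8 markers higher, and 316 to 580 CPM in On T ovaries against 141 to 233 CPM in theirs, with 5 of 8 higher. Their part in the rises of Sirpa, Ptpn6 and Grb2 was not tested.

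Genes that prolactin regulates in the corpus luteum were mostly lower. Of 10 tested, 6 fell and 0 rose in each cohort, beside 5.03% and 4.81% of all genes called lower. Median log2 fold changes were -1.56 on testosterone and -1.69 after it. Most of the genes called in each cohort are luteal markers as well, so this is no separate result. The list holds genes that prolactin induces and genes that it represses, so its count and median give no direction of prolactin signalling. Akr1c18, which inactivates progesterone and which prolactin represses in the luteal cells of rodents, fell in both, with log2 fold changes of -7.78 and -9.39 (adjusted p = 1.54e-11 and 5.92e-12). Sfrp4, a secreted Wnt antagonist, fell in both, with log2 fold changes of -7.63 and -5.48 (adjusted p = 3.07e-07 and 9.82e-07). Cdkn1b, the cell cycle inhibitor p27, fell by 0.57 (adjusted p = 0.00622) and by 1.37 (adjusted p = 9.64e-07). A2m, a protease inhibitor that prolactin induces in rat luteal cells, had a log2 fold change of 0.36 on testosterone (adjusted p = 0.809) and fell by 3.55 after it (adjusted p = 0.00285), a call lost with limma on log2(TPM + 1) (adjusted p = 0.0721). Of 6 growth hormone response genes tested, Cish alone was called on testosterone, and Cish and Igfbp3, a carrier of insulin-like growth factor, fell after it. Of all genes 9.27% were called on testosterone, 5.03% lower, and 12.3% after it, 4.81% lower. Igfbp3 fell by 1.04 after testosterone (adjusted p = 0.0151) and lost its call without Post T library 1 (0.0610) or Post T control library 1 (0.0518). Igf1 had log2 fold changes of 0.19 (adjusted p = 0.344) and 0.08 (adjusted p = 0.760), and Socs2 of -0.04 and -0.05 (adjusted p = 0.934 and 0.925).

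**Figure D5:**
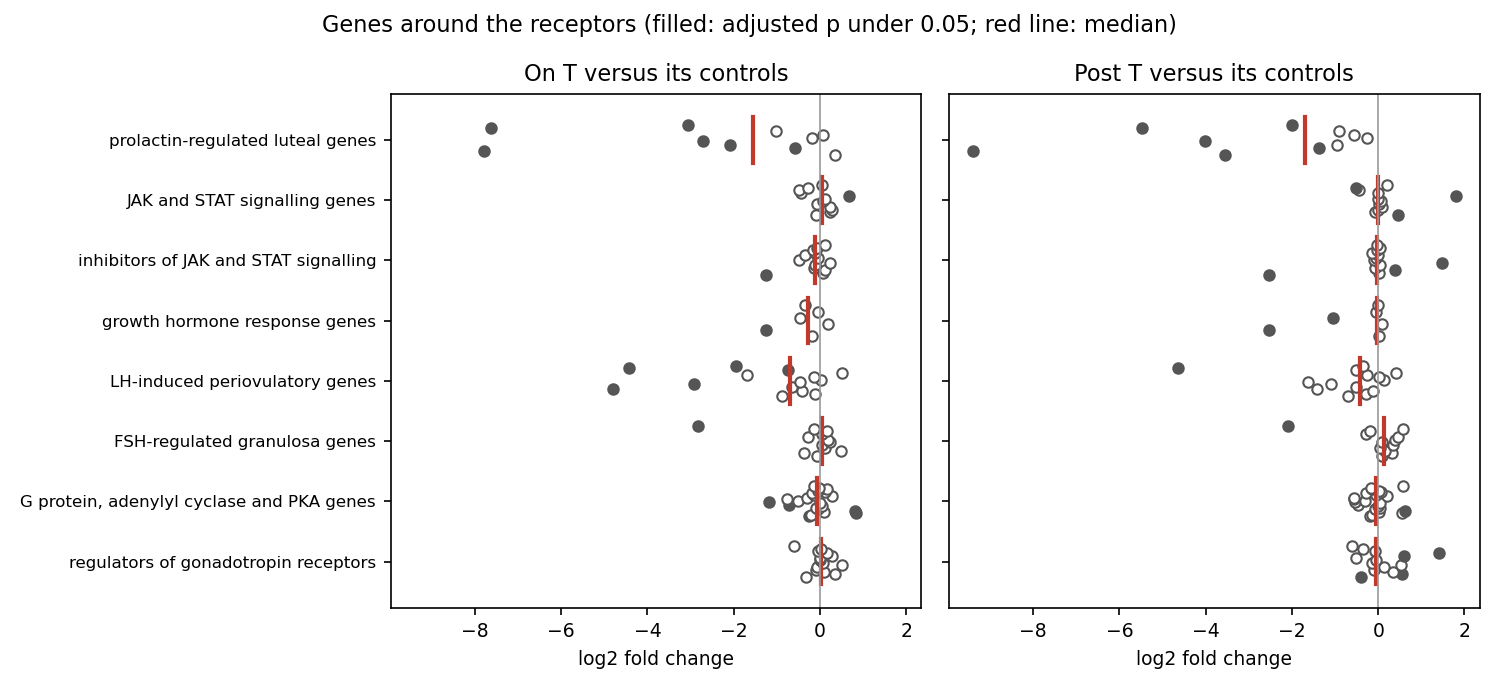
Log2 fold change of each tested gene of 8 lists around the receptors, on testosterone and after it. Filled points have an adjusted p under 0.05 and red lines are medians, which lie at -1.56 and -1.69 for the prolactin-regulated luteal genes and near 0 for the JAK and STAT genes.

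Downstream of the gonadotropin receptors, genes of the cyclic AMP machinery were called in both directions on testosterone. Of 22 genes for G proteins, adenylyl cyclases and protein kinase A, 2 rose and 3 fell on testosterone, where 9.27% of all genes were called, and 1 rose after it, where 12.3% of all genes were called, with a median log2 fold change of -0.06 in both. Across the settings run, 1 to 2 rose and 1 to 4 fell on testosterone, and 0 to 2 rose and 0 to 2 fell after it. The adenylyl cyclases Adcy7 (0.81, adjusted p = 0.00622) and Adcy5 (0.83, adjusted p = 0.00767) rose on testosterone, and the cyclic AMP-responsive factor Crem fell by 0.71 (adjusted p = 0.00872). The Adcy5 call was lost with limma on log2(TPM + 0.1) (adjusted p = 0.0524). Adcy7 was the gene called after testosterone (0.63, adjusted p = 0.0226), a call lost without Post T library 1 (0.0583) or 2 (0.0585), without Post T control library 1 (0.0640) and with limma on log2(TPM + 1) (0.0866) and log2(TPM + 0.1) (0.0938). Of 14 regulators of the gonadotropin receptors, 0 were called on testosterone, and 3 rose and 1 fell after it, where 12.3% of all genes were called. Across the settings run, 0 to 4 of them rose and 0 to 1 fell after testosterone. The risers included Pkib, an inhibitor of protein kinase A, which rose by 1.41 (adjusted p = 0.00120; 0.0523 with limma on log2(TPM + 0.1)). Pkib averaged 2.50 ± 0.56 CPM in Post T ovaries and 0.934 ± 0.219 CPM in their controls (SD, n = 4 each).

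Of all genes 9.27% were called in either direction on testosterone and 12.3% after it, with 5.03% and 4.81% called lower. Of 12 FSH-regulated granulosa genes, 1 fell and 0 rose in each cohort, a share no higher than that called in either direction. That gene was the kinase Sgk1, at 35.2 ± 4.8 CPM in On T ovaries against 250 ± 101 CPM in their controls and at 89.5 ± 6.3 CPM in Post T ovaries against 381 ± 140 CPM in theirs (SD, n = 4 each; log2 fold changes -2.83 and -2.09, adjusted p = 6.23e-06 and 3.55e-05). The medians of the list were 0.05 and 0.12. Of 14 LH-induced periovulatory genes tested, 5 fell on testosterone and 1 after it, and 0 rose, with medians of -0.69 and -0.43, beside 5.03% and 4.81% of all genes called lower. Across the settings run, 4 to 8 fell on testosterone and 1 to 4 after it. Runx2, a transcription factor that LH induces and that luteal cells express, fell in both, with log2 fold changes of -4.43 and -4.65 (adjusted p = 2.30e-05 and 4.22e-06). Runx2 averaged 2.61 ± 0.74 CPM in On T ovaries against 56.1 ± 36.5 CPM in their controls, and 4.20 ± 0.60 CPM in Post T ovaries against 105.0 ± 60.5 CPM in theirs (SD, n = 4 each).

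Of 10 other receptors for pituitary hormones, 4 had enough counts to be tested, and Oxtr, the oxytocin receptor, was the only one at more than a few TPM, with a mean of 22.0 TPM over all libraries. Oxtr averaged 45.4 ± 13.6 CPM in Post T ovaries and 135.9 ± 76.2 CPM in their controls (SD, n = 4 each), a fall of 1.58 on the log2 scale (adjusted p = 0.00170), and it had a log2 fold change of -0.45 on testosterone (adjusted p = 0.410). The difference of these effects was -1.13 with an adjusted p of 0.199. Oxtr had a log2 fold change of 1.00 between older and younger controls (adjusted p = 0.253, not called). Of 3 tested relatives of the gonadotropin receptors 2 fell on testosterone and 1 after it, beside 5.03% and 4.81% of all genes called lower. Across the settings run, 0 to 2 fell on testosterone and 1 to 2 after it. Among them was Lgr5, an R-spondin receptor, which fell by 2.19 on testosterone (adjusted p = 0.0137, and 0.0633 with only the 8 libraries compared). Of 6 tested relatives of the prolactin and growth hormone receptors, 1 rose on testosterone and 3 after it, and 0 fell. Of all genes 4.24% and 7.49% were called higher. Across the settings run, 1 relative rose on testosterone and 1 to 3 after it. Lifr, the receptor of leukemia inhibitory factor, averaged 172.4 ± 44.7 CPM on testosterone, against 64.5 ± 8.9 CPM in controls (SD, n = 4 each). It rose by 1.42 on the log2 scale on testosterone (adjusted p = 0.000198) and by 0.68 after it (adjusted p = 0.0273).

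Apart from Pomc, RNA of the hormones themselves was near the limit of detection in these ovaries. Over all 16 libraries Lhb had 2 counts, Fshb 5 and Cga 2, while Prl had 6 counts and Gh 14, each in a single library. Tshb had 71 counts over all libraries, with 1 to 8 in a library. Pomc had 18 to 61 counts in a library and was the 1 hormone gene of 7 that could be tested, with 0 calls.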

How the data were processed

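Poly(A) RNA of 16 mouse ovaries was sequenced as paired ends from a directional kit, per the labels' protocols. Per the submitters' processing notes, RSEM 1.3.3, STAR 2.7.8a, cutadapt 2.3 and FastQC 0.11.8 were used with GRCm38. Which annotation release was counted, and whether by strand, is not given in the sources used here. The deposited expected counts are the authors' estimates per gene, not normalized, and were whole numbers. The deposited TPM and FPKM values were scaled by the authors for length and library size.

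Expected counts were tested in R 4.3.3 with edgeR 4.0.16: filterByExpr at a minimum count of 10 left 18833 of 55426 genes, and all 16 libraries entered 1 fit after TMM scaling, with Benjamini-Hochberg adjustment at 0.05. SE follow from the fold change and F. Log2 CPM used a prior count of 2, and effective length is counts over FPKM and library total. Library totals were 26598055 to 52659637. Members and gene lists were chosen with earlier results of these data known, and prolactin-regulated and luteal lists share genes. A list gene is not reported here. Named were the 4 receptors, called list members from the 4 with the smallest p per list and contrast, and the 5 genes most like each receptor; Igf1, Socs2, the hormone genes and Gm21973 were chosen after their values were seen. Positions are from GENCODE M21, which held 99.66% of the identifiers, and promoters from RefSeq GRCm38.p6. Ovaries of a group came from separate mice. The fit was tested on simulated data. Alternatives were other scalings and filters, DESeq2 1.42.0, limma 3.58.1 on log2 TPM, fewer libraries, a replicate block, an age covariate, and each library left out in turn.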

Additional observations from a re-analysis of the deposited data

Results flagged for a closer look

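Dixon's test was run on 96 groups of 4, of which 16 were those of the receptors and the rest those of the other named genes. None of the 4 receptors had a library that stood apart in its group. Among the other named genes 1 library stood apart in each of the groups listed next. Chance flags about 1 in 20 groups, and those listed are a larger share of the groups tested. The On T libraries were the highest for Akr1c18 (1.04 CPM), Igfbp3 (48.7), Pkib (1.70) and Adcy7 (78.0) and the lowest for Cdkn1b (94.2). The On T controls were the highest for Cish (24.4) and Cdkn1b (195.9). The Post T libraries were the highest for Grb2 (176.0) and the lowest for Lgr5 (7.47). The Post T controls were the highest for Crem (23.6) and Oxtr (249.4).

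The treatment effects of the cohorts differed in edgeR's test of the difference itself (Post T effect minus On T effect, log2) for 5 named genes. It was higher after testosterone for Grb2 (0.55, adjusted p = 0.00957), Sirpa (1.12, adjusted p = 0.00371) and Ptpn6 (1.26, adjusted p = 0.00503). It was lower for Cdkn1b (-0.80, adjusted p = 0.0152) and A2m (-3.91, adjusted p = 0.0408). Such a difference can come from the control groups as well as from the treated ones. Between older and younger controls the log2 fold change was 2.71 for A2m, 0.57 for Cdkn1b, 0.54 for Sirpa, 0.51 for Ptpn6 and 0.05 for Grb2. None of these was called by edgeR (adjusted p = 0.134 to 0.859), and their part was not tested.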

How the results depend on the processing

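Prlr kept its direction and call on testosterone under every alternative run, with log2 fold changes of -1.36 to -1.05. After testosterone its range was -1.11 to -0.82, with the losses of call given above (leave-one-out from -1.11 to -0.82), and adjusted p-values of 0.00108 to 0.0362 under the alternatives that keep all libraries. Lhcgr on testosterone ranged from -1.94 to -1.27 without 1 library, and from -1.72 to -1.39 otherwise, with adjusted p-values of 0.0296 to 0.207; it was -1.4565 with only the 8 libraries compared and -1.4642 with age as a covariate. Fshr on testosterone was 0.0386 without On T library 2 (range -0.476 to 0.0386), and its difference of effects -0.00431 (range -0.00431 to 0.525). Effects near 0 changed sign: Lhcgr after testosterone was 0.0455 with the replicate block, 0.0103 with age as a covariate and -0.303 to 0.351 without 1 library; Fshr was -0.0459 and -0.0531 with limma on log2(TPM + 1) and log2(TPM + 0.1), and -0.122 to 0.212 without 1 library; Ghr between older and younger controls was -0.0678 to 0.302 without 1 library. Counts of called genes moved on testosterone to 1119 and 1118 with limma on log2(TPM + 1) and log2(TPM + 0.1), and 1081 to 1764 without 1 library; for the difference of effects to 999 with DESeq2; and between the control groups to 20 with no filter, 173 with DESeq2 and 0 to 9 without 1 library. Causes were not tested. Replicate numbers did not pair the ovaries, with correlations of -0.0194 to 0.233 between deviations of the same number; with the replicate block Prlr was -1.15 and -0.98 (adjusted p = 0.00713 and 0.0125), and 1676 and 2274 genes were called, against 1746 and 2315. Scalings moved the median of all genes by less than 0.04.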
